A study of Mus musculus with 11 samples.

Results

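The genes that make sterols and fatty acids, and the regulators that switch them on, were followed in hearts of mice in which the fatty acid transporter Cd36 was deleted. The list of 34 gene symbols was matched to the symbols in the deposited table, and 33 of them were found among its 23420 genes. Msmo1, a sterol demethylase, had no row under that symbol; its older symbol Sc4mol had one, which is described beside the list and not counted in it. Of the 33 genes, 32 reached a mean value of at least 10 over all libraries and were tested; Idi1, an isomerase of the isoprenoid pathway, stood at 0 to 9.38 in every library and was not.

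Cholesterol is made from acetyl-CoA through mevalonate, isoprenoid units and squalene, and fatty acids are made from acetyl-CoA by carboxylation, chain assembly, elongation and desaturation. Both pathways are driven by SREBP transcription factors, which are held in the endoplasmic reticulum by Insig proteins and escorted by Scap to the Golgi for activation when sterols are low. The heart takes up most of its fatty acids from blood, with Cd36 in the membranes of endothelial cells and cardiomyocytes, and makes few of its own. In heart muscle, malonyl-CoA made by acetyl-CoA carboxylase is known chiefly as a brake on the entry of fatty acids into mitochondria.

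RNA of whole heart tissue was sequenced in 11 libraries of 4 groups. These were EC cd36 KO, with deletion in endothelial cells through Tie2-cre (n = 3), MHC cd36 KO, with deletion in cardiomyocytes through MHC-cre (n = 3), Total cd36 ko, whose labels do not say how the deletion was made (n = 3), and Control (n = 2). All 4 groups carry the same Cd36 loxp strain label, no Cre is stated for Control, and age and sex are not given. Tie2-cre is also known to act in blood-derived cells. Nothing in the labels says that the libraries of a group come from separate animals, and the p-values below then reflect only how far these libraries spread, which may be technical. The title of the series concerns endothelial Cd36 and fatty acid uptake by tissues.

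Cd36 itself averaged 27957 ± 2278 normalized reads in EC cd36 KO hearts, 19589 ± 3290.1 in MHC cd36 KO hearts and 21188 ± 2303 in Total cd36 ko hearts, against 39977 ± 6438 in Control hearts (SD). Every knockout library was below both Control libraries, and no knockout group was near 0, the Total cd36 ko group included at 53.0% of Control. The fall in MHC cd36 KO against Control passed (log2 -1.03 ± 0.17, SE, limma adjusted p = 0.00863). It no longer did in a fit to these 2 groups alone or without Control replicate 1 (-0.87). Neither EC cd36 KO, at -0.51 against Control (limma, adjusted p = 0.298), nor Total cd36 ko, at -0.91 (limma, adjusted p = 0.0809), passed. Cd36 was higher in EC cd36 KO than in MHC cd36 KO (0.52 ± 0.15, limma adjusted p = 0.0298), and this call held under 13 of 20 alternatives. Libraries held 11157062 to 20105673 reads, except EC cd36 KO replicate 1 with 2268403. The label numbers of the MHC cd36 KO and the Total cd36 ko libraries each form a run of their own, so anything those numbers mark cannot be told apart from these groups.

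The promoter of Hmgcs1 holds a match to the sterol response element as spelled below. Those of Fasn and Srebf2 hold no such match. A difference described below passed a test for Fasn and for Srebf2, and none did for Hmgcs1. For these reasons the promoters of the 3 genes are shown. They are the 250 bases before the RefSeq transcription start (GRCm38.p6), at chr13:119690101-119690350 on the + strand for Hmgcs1, chr11:120824548-120824797 on the - strand for Fasn and chr15:82147019-82147268 on the + strand for Srebf2, written 5′ to 3′ with every motif found in capitals.
Hmgcs1: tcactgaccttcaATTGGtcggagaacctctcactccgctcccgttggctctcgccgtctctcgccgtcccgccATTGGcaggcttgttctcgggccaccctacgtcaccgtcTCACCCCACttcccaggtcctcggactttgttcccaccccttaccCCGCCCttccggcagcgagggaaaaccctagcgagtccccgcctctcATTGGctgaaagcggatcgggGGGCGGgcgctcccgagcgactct
Fasn: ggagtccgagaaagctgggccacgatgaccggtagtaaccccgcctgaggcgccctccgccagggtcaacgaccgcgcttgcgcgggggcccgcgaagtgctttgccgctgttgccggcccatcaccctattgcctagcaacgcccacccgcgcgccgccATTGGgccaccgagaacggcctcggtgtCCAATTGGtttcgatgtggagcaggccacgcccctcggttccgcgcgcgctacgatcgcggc
Srebf2: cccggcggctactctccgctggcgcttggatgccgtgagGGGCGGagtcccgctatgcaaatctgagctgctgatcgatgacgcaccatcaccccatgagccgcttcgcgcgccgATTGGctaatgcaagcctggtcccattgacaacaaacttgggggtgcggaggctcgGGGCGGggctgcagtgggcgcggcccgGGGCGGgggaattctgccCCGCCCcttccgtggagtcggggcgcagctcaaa
The 4 motifs searched, on both strands, were the sterol response element TCACNCCAC, the CCAAT box, the E-box CACGTG and the GC box GGGCGG. A RefSeq promoter was given for 27 of the 34 listed genes. Of these, 21 held a CCAAT box (77.8%, against 37.5% of 27025 genes with the same window) and 20 held a GC box (74.1%, against 35.4%). An E-box stood in 6 (22.2%, against 6.86%), and the sterol response element in Hmgcs1 alone (3.7%, against 1.22%), where it begins 137 bases before the start. Fasn holds 3 CCAAT boxes, of which those that begin 62 and 59 bases before the start overlap on opposite strands. A match describes these letters and is no evidence of binding, and elements spelled otherwise were not searched.

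Per kilobase of exon, on the scale of normalized reads averaged over all 11 libraries, the list ran from 1.38 to 1073. Acacb, the mitochondrial acetyl-CoA carboxylase, stood highest, while Acaca, its cytosolic counterpart, stood at 6.86. Next came Insig2 (269), the ATP citrate lyase Acly (164) that releases acetyl-CoA in the cytosol, the elongase Elovl5 (146), squalene synthase Fdft1 (144) and the desaturase Scd4 (141). Of the enzymes after Fdft1 in the sterol branch, the sterol isomerase Ebp stood at 91.6, lanosterol synthase Lss at 3.56 and squalene epoxidase Sqle at 5.16 per kb. On counts Lss (38.4) stood above Sqle (28.6), and its merged exons span 10787 bases, those of Sqle 5546. The elongase Elovl6 at 2.09 and Idi1 at 1.38 closed the order. Neighbours in this order often overlapped in their ranges over libraries: Fdft1 ran from 63.1 to 192 per kb and Scd4 from 37.2 to 324.

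**Figure D1:**
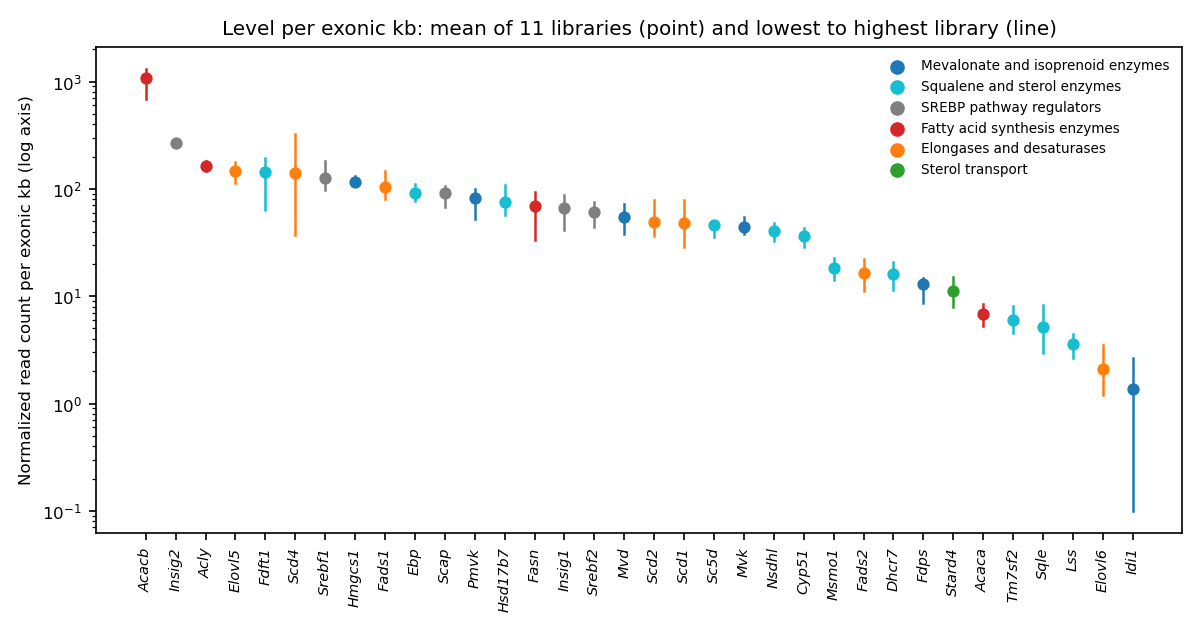
Normalized read count per exonic kilobase (log axis) of each listed gene, ordered by mean over 11 libraries; points are means, lines run from the lowest to the highest library, and colours mark the role. Msmo1 is the row under the symbol Sc4mol. Acacb stands highest at 1073 per kb and Idi1 lowest at 1.38; its line is cut at the axis because 1 library read 0.

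Against Control, most of these genes did not pass a test in any knockout, and those that did were in MHC cd36 KO hearts. There, Fasn (fatty acid synthase) and Scd1 (stearoyl-CoA desaturase) rose and Fdft1 fell. In MHC cd36 KO against Control, 3 of the 32 tested genes passed, 9.38%, beside 5.7% of the 12976 genes tested overall (limma, Benjamini-Hochberg adjusted p under 0.05). Of the 3, 2 were higher (background 3.29%) and 1 lower (background 2.4%), and edgeR and DESeq2 each called the same 3 genes, beside 7.76% of all genes by edgeR and 9.83% by DESeq2. A further 3 genes had an unadjusted p under 0.05, which makes 6 of 32 beside 21% of all genes. In EC cd36 KO against Control 0 of 32 passed by limma, edgeR or DESeq2 (background 0.316% by limma, 0.385% by edgeR and 1.25% by DESeq2) and 3 had an unadjusted p under 0.05 (background 10.5%). In Total cd36 ko against Control 0 of 32 passed by any of these tools (background 0.0848% by limma, 0.0617% higher and 0.0231% lower, 0.108% by edgeR and 0.717% by DESeq2) and 1 had an unadjusted p under 0.05 (background 8.11%). Read against these backgrounds, the counts are not a result about the list as a whole.

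The median log2 difference of the 32 genes was -0.03 in EC cd36 KO, 0.01 in MHC cd36 KO and -0.05 in Total cd36 ko against Control, with a median over all tested genes of -0.01, -0.00 and 0.00. Ranges that did not overlap between groups were found for 8 genes in EC cd36 KO against Control (background 25.1% of all genes), of which 6 were higher (12%) and 2 lower (13.2%). In MHC cd36 KO there were 7 (background 36.6%), 5 higher (18.3%) and 2 lower (18.3%), and in Total cd36 ko 6 (background 25.1%), 2 higher (12.3%) and 4 lower (12.8%). The count of 3 in MHC cd36 KO changed with single libraries. It was 1, Fdft1, without EC cd36 KO replicate 2 or Total cd36 ko replicate 3. It was also 1, Fdft1, without MHC cd36 KO replicate 1 or 3. The share over all genes fell in these fits as well, from 5.7% to 4.3%, 3.67%, 2.83% and 3.93% in that order. Without Control replicate 1 the 3 differences kept their sign, with sizes given below. Over all 4 groups together, 3 of 32 genes differed (Fdft1, Scd1 and Fads1; limma F test, adjusted p under 0.05; 9.38%, against a background of 14.3%).

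**Figure D2:**
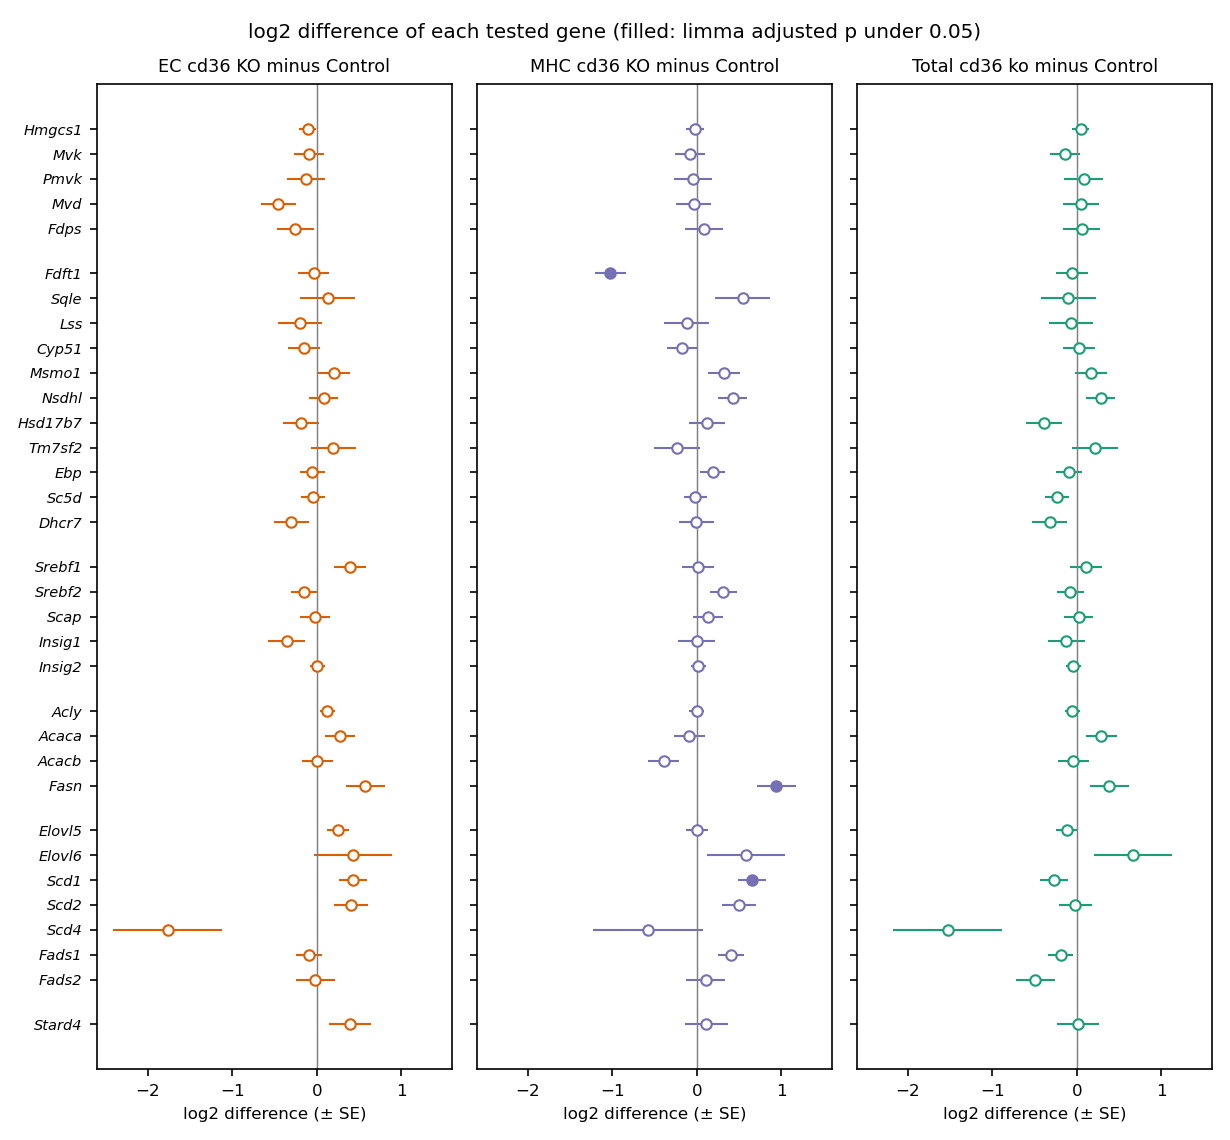
log2 difference from Control of each tested gene, with its SE, in EC cd36 KO, MHC cd36 KO and Total cd36 ko hearts, grouped by role; filled points have a limma adjusted p under 0.05. Msmo1 is the row under Sc4mol. The filled points are Fdft1 at -1.02, Fasn at 0.94 and Scd1 at 0.65, all in MHC cd36 KO, and Scd4 stands far left with a long SE in the other knockouts.

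Other cell types differed between the same hearts, and in bulk tissue fewer cells of a type cannot be told apart from less RNA per cell. The summed level of 8 macrophage markers ran from 7821 to 14864 in MHC cd36 KO hearts, against 4192 to 4546 in Control, and 7 of the 8 rose (limma, adjusted p under 0.05). The 8 fibroblast markers summed to 26553 to 62088 in MHC cd36 KO hearts and 18048 to 18198 in Control, and 4 of the 8 rose. Over all genes, 3.29% were higher in MHC cd36 KO than in Control. The macrophage and fibroblast sums were both highest in MHC cd36 KO replicate 1. The macrophage sums were 3680 to 4414 in EC cd36 KO hearts and 3912 to 5597 in Total cd36 ko hearts, and the fibroblast sums were 14644 to 17275 in EC cd36 KO and 15303 to 19252 in Total cd36 ko.

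Ventricular cardiomyocyte markers, which define the labelled tissue, summed to 722186 to 1037840 in MHC cd36 KO hearts and 1109840 to 1164190 in Control, and none of the 8 passed. Of the 8, 7 had a negative log2 difference and 1 a positive one. Without overlap, 6 lay below Control, beside 18.3% of all genes. An unadjusted p under 0.05 (limma) was found for 2, beside 21% of all genes. Atrial markers summed to 5716 to 8857 in EC cd36 KO, 106561 to 216472 in MHC cd36 KO and 7075 to 17845 in Total cd36 ko hearts, against 6505 to 10684 in Control. That sum is nearly all Nppa, which reached a level of 215750 while no other atrial marker passed 622. Nppa and Mybphl rose in MHC cd36 KO, and the other 2 tested did not pass, with Myl4 at -0.04 and Kcna5 at -0.41 on the log2 scale against Control. Of the 10 adipocyte markers only Adig and Cidea reached the filter, and Adig was lower in MHC cd36 KO than in Control. Cidea stood at 375 to 696, while the defining markers were at or near 0, with Adipoq at 0 in 3 libraries, Plin1 at 0 to 3.34 and Lep at 0 in all 11. Endothelial markers summed to 18762 to 21348 in EC cd36 KO, 14362 to 15131 in MHC cd36 KO and 16403 to 16955 in Total cd36 ko hearts, against 16528 to 17586 in Control, and 0 of 8 passed in MHC cd36 KO against Control by limma, with 1 at an unadjusted p under 0.05. Of the 8 pericyte and smooth muscle markers Acta2 rose and Rgs5 and Kcnj8 fell in MHC cd36 KO against Control. Of 7 tested Schwann cell markers 1 was higher there. Over all genes, 3.29% were higher and 2.4% lower in that comparison.

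Marker genes also differed between the knockouts (limma, adjusted p under 0.05). In EC cd36 KO against MHC cd36 KO, 8 of 8 macrophage and 7 of 8 fibroblast markers were lower, 5 of 8 endothelial and 3 of 8 ventricular markers were higher, and 3 pericyte and smooth muscle markers were higher and 1 lower. In Total cd36 ko against MHC cd36 KO, 8 of 8 macrophage and 7 of 8 fibroblast markers were lower. There, 1 of 8 endothelial and 1 of 8 ventricular markers were higher and 1 of 8 pericyte and smooth muscle markers lower. In both comparisons 2 of 4 atrial and 1 of 7 Schwann cell markers were lower, and of 2 tested adipocyte markers 1 was higher and 1 lower. Over all genes, 8.72% were higher and 10.4% lower in EC cd36 KO against MHC cd36 KO. In Total cd36 ko against MHC cd36 KO these shares were 8.2% and 8.2%. Counts of 1 among 7 or 8 markers are near such shares and are not a result about those cell types. The part of these cell types in the sterol and fatty acid differences that involve MHC cd36 KO hearts, those between the knockouts included, was not tested.

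Among the mevalonate and isoprenoid enzymes, 0 of 5 tested genes passed in any of the 6 comparisons by limma, edgeR or DESeq2, and 1 had an unadjusted p under 0.05 in each of EC cd36 KO minus MHC cd36 KO and Total cd36 ko minus EC cd36 KO. Hmgcs1, which makes the HMG-CoA from which mevalonate is formed, was the steadiest of them. It read 483, 536 and 492 in EC cd36 KO, 504, 539 and 559 in MHC cd36 KO and 570.3, 601 and 511 in Total cd36 ko hearts, against 524 and 562 in Control. All groups overlapped, and the 95% intervals of its log2 difference from Control were -0.34 to 0.12 in EC cd36 KO, -0.25 to 0.20 in MHC cd36 KO and -0.18 to 0.27 in Total cd36 ko.

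Mvd, the decarboxylase that yields isopentenyl diphosphate, was the gene with the unadjusted p in both comparisons. It read 96.7, 71.1 and 71.6 in EC cd36 KO, 98.0, 95.2 and 127 in MHC cd36 KO and 112, 94.6 and 133 in Total cd36 ko hearts, against 98.7 and 119 in Control. All 3 EC cd36 KO libraries lay below both Control libraries, and the difference of -0.45 ± 0.21 did not pass (limma, adjusted p = 0.480). The kinases Mvk and Pmvk ranged from 101 to 145 and from 90.6 to 172 over all 11 libraries, and Fdps, which makes farnesyl diphosphate, from 36.3 to 62.6. Fdps shares 26.7% of its exonic length with another annotated gene on the same strand, so its reads may include those of that gene.

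In the squalene and sterol branch, 1 of 10 tested genes passed in 3 comparisons, and it was Fdft1 each time. Over all genes, 5.7% passed in MHC cd36 KO against Control. Against MHC cd36 KO, 19.1% passed in EC cd36 KO and 16.4% in Total cd36 ko. Beside these shares, 1 gene of 10 is not a result about the branch, and the 3 comparisons share the MHC cd36 KO libraries. Fdft1 encodes squalene synthase, the first enzyme committed to sterols, and lies at chr14:63145150-63179578 on the - strand (GRCm38). It read 671, 705 and 721 in EC cd36 KO hearts, 267, 365 and 447 in MHC cd36 KO hearts and 609.8, 655 and 812 in Total cd36 ko hearts, against 785 and 652 in Control. Each MHC cd36 KO library was below every library of the other groups, and those other groups overlapped with each other.

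Fdft1 averaged 359.6 ± 90.3 in MHC cd36 KO hearts and 719 ± 93.8 in Control (SD), and it fell (log2 -1.02 ± 0.19, SE; limma, adjusted p = 0.0130). It was higher than in MHC cd36 KO by 0.99 ± 0.17 in EC cd36 KO (limma, adjusted p = 0.00241) and by 0.96 ± 0.17 in Total cd36 ko (limma, adjusted p = 0.00445). Against Control, EC cd36 KO differed by -0.04 ± 0.19 and Total cd36 ko by -0.06 ± 0.19, and neither passed. The comparisons with MHC cd36 KO passed under all 20 alternatives, and that with Control under 18: without Control replicate 1 it was -0.89 (limma, adjusted p = 0.150), and in a fit to these 2 groups alone it was -1.02 (limma, adjusted p = 0.0762).

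The exons of Fdft1 overlap those of Ctsb, a lysosomal protease gene on the opposite strand, over 774 bases, 18.3% of its exonic length. Ctsb read 12883, 10543 and 11864 in MHC cd36 KO hearts, against 8598 and 9899 in Control, a difference of 0.35 ± 0.11 on the log2 scale that did not pass (limma, adjusted p = 0.0944), and it was lower in EC cd36 KO than in MHC cd36 KO (-0.37 ± 0.10; limma, adjusted p = 0.0239). The strand setting of the counting is not given in the sources used here, so reads of the overlap may not have been assigned by strand.

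The other 9 sterol genes did not pass in any comparison. Sqle, which oxidises squalene, read 30.2, 27.6 and 23.9 in EC cd36 KO, 46.3, 28.5 and 36.8 in MHC cd36 KO and 16.5, 32.4 and 22.5 in Total cd36 ko, against 21.0 and 29.1 in Control; its groups overlapped and its SE of 0.33 against Control was wide at this level. Nsdhl, a demethylating dehydrogenase, read 137, 131 and 126 in MHC cd36 KO, all above 94.0 and 101 in Control, and did not pass (log2 0.43 ± 0.17; limma, adjusted p = 0.174). Hsd17b7, a ketoreductase of the same step, read 307, 294 and 341 in Total cd36 ko and 438, 416 and 489.9 in MHC cd36 KO, without overlap (log2 -0.51 ± 0.19; limma, adjusted p = 0.0885).

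Hsd17b7 was also the sterol gene in which the Control libraries lay furthest apart, at 305 and 550.2. Its difference of -0.51 between Total cd36 ko and MHC cd36 KO passed under 4 of 20 alternatives, over which it ran from -0.65 to -0.44. The remaining genes of the branch ran over all libraries from 28.4 to 48.3 for Lss, 126 to 192 for the lanosterol demethylase Cyp51, 20.1 to 35.4 for the sterol reductase Tm7sf2 and 179 to 255 for the sterol isomerase Ebp. Sc5d, a sterol desaturase, ran from 173 to 244, and Dhcr7, which makes cholesterol in its last step, from 66.9 to 121. The row under Sc4mol, the demethylase Msmo1, read 139, 87.8 and 114 in EC cd36 KO, 123, 109 and 132 in MHC cd36 KO and 118, 99.8 and 109 in Total cd36 ko, against 96.4 and 96.9 in Control, and did not pass in any comparison.

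Of the 5 SREBP pathway regulators, none passed against Control by limma, with 0 at an unadjusted p under 0.05 in each of the 3 comparisons and none called by edgeR or DESeq2. Srebf2, the transcription factor gene known chiefly for sterol targets, read 314, 406 and 435 in EC cd36 KO, 492, 545 and 545 in MHC cd36 KO and 409.9, 353 and 443 in Total cd36 ko, against 372 and 481 in Control. The MHC cd36 KO libraries were above every other library. Srebf2 was lower in EC cd36 KO than in MHC cd36 KO (log2 -0.46 ± 0.14; limma, adjusted p = 0.0385), and the difference of 0.32 ± 0.16 between MHC cd36 KO and Control did not pass (limma, adjusted p = 0.279).

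The Srebf2 call held under 12 of 20 alternatives. It was lost without EC cd36 KO replicate 1 (-0.32; limma, adjusted p = 0.137), without EC cd36 KO replicate 2 (-0.51; 0.0634), and without MHC cd36 KO replicate 1 (-0.51; 0.0610), 2 (-0.44; 0.0822) or 3 (-0.44; 0.102). It was also lost in edgeR (-0.41, adjusted p = 0.0530). Total cd36 ko minus MHC cd36 KO was -0.40 ± 0.14 and did not pass (limma, adjusted p = 0.0775). It passed under 4 of 20 alternatives, among them without EC cd36 KO replicate 1 (-0.40; limma, adjusted p = 0.0448) and in DESeq2 (-0.39, adjusted p = 0.0420). The Srebf2 promoter printed above holds 4 GC boxes and 1 CCAAT box, and no match to the sterol response element as spelled here.

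Srebf1, the factor gene known chiefly for fatty acid targets, read 1027, 939 and 610.1 in EC cd36 KO, 671, 629 and 638 in MHC cd36 KO and 700.1, 664 and 702 in Total cd36 ko, against 546 and 747 in Control. EC cd36 KO replicates 1 and 2 stood above every other library while replicate 3 stood among them, and the difference of EC cd36 KO minus MHC cd36 KO, 0.38 ± 0.17 (limma, adjusted p = 0.137), passed, among the alternatives run, only without that replicate (0.60; limma, adjusted p = 0.0111). Scap, the escort, ran from 508 to 787 over all libraries. The anchors Insig1 and Insig2 ran from 129 to 271 and from 877 to 991; Insig2 had the narrowest spread of the regulators, with a 95% interval against Control of -0.18 to 0.21 in MHC cd36 KO.

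In fatty acid synthesis, 1 of 4 tested genes passed, in MHC cd36 KO against Control, beside 5.7% of all genes (3.29% higher). A single gene of 4 is not a result about this role. Fasn encodes fatty acid synthase, which assembles palmitate, and lies at chr11:120805846-120824547 on the - strand (GRCm38). It read 749, 748 and 784 in EC cd36 KO hearts, 890.2, 1027 and 1026 in MHC cd36 KO hearts and 864, 544 and 626 in Total cd36 ko hearts, against 369 and 705 in Control. All 3 MHC cd36 KO libraries were above every other library, and Control replicate 1 was the lowest of all.

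Fasn averaged 981 ± 78.5 in MHC cd36 KO and 537 ± 238 in Control (SD) and rose (log2 0.94 ± 0.23, SE; limma, adjusted p = 0.0347). EC cd36 KO, at 0.57 ± 0.23 against Control (limma, adjusted p = 0.401), and Total cd36 ko, at 0.38 ± 0.23 (limma, adjusted p = 0.765), did not pass. Neither did Total cd36 ko minus MHC cd36 KO (-0.56 ± 0.21; limma, adjusted p = 0.0860). The rise held under 11 of 20 alternatives, and without Control replicate 1 it was 0.47 (limma, adjusted p = 0.332). It was also lost without EC cd36 KO replicate 2 (0.94; 0.0522), without MHC cd36 KO replicate 1 (1.01; 0.0617), 2 (0.90; 0.0555) or 3 (0.90; 0.0794), and without Total cd36 ko replicate 3 (0.94; 0.0531). Total cd36 ko minus MHC cd36 KO passed under 5 of 20 alternatives, among them without Total cd36 ko replicate 1 (-0.75; limma, adjusted p = 0.0439).

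Acly read 777 to 958 over all libraries, with 937, 958 and 895 in EC cd36 KO and 843 and 863 in Control, which did not overlap; the difference was 0.12 ± 0.09 and did not pass (limma, adjusted p = 0.659). Acaca, the carboxylase that feeds fatty acid synthase, read 133, 114 and 139 in EC cd36 KO, 90.3, 111 and 97.3 in MHC cd36 KO and 144, 107 and 141 in Total cd36 ko, against 115 and 96.9 in Control, and its groups overlapped with Control in each case. Acacb, the carboxylase tied to mitochondrial entry, read 9099.6, 12583 and 11948 in EC cd36 KO, 6603, 9079.6 and 9967 in MHC cd36 KO and 10616, 10155 and 11419 in Total cd36 ko, against 9874 and 12369 in Control. Its lowest value was that of MHC cd36 KO replicate 1, the library with the highest macrophage and fibroblast sums, and MHC cd36 KO minus Control was -0.39 ± 0.18 (limma, adjusted p = 0.244).

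Among the 7 elongases and desaturases, Scd1 passed in MHC cd36 KO against Control, and Scd1 and Fads1 differed among the knockouts. Over all genes, 5.7% passed in MHC cd36 KO against Control. Against MHC cd36 KO, 19.1% passed in EC cd36 KO and 16.4% in Total cd36 ko. Scd1, Scd2 and Scd4 are paralogs that place a double bond in saturated fatty acyl-CoA and lie close together on chromosome 19, at chr19:44394455-44407879 (- strand), chr19:44293674-44306864 (+) and chr19:44333092-44346743 (+). Reads of near-identical stretches may have been split between them or left out by the counting, whose mode is not given in the sources used here. Scd4 is the paralog known for its expression in mouse heart, and had the highest level per kb of the 3.

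Scd1 read 254, 264 and 275 in EC cd36 KO, 383, 255 and 300.1 in MHC cd36 KO and 160.4, 187 and 142 in Total cd36 ko, against 188 and 204 in Control. EC cd36 KO and MHC cd36 KO stood above Control without overlap, and Total cd36 ko below it. Scd1 rose in MHC cd36 KO against Control by 0.65 ± 0.17 (limma, adjusted p = 0.0417) and was lower in Total cd36 ko than in MHC cd36 KO (log2 difference -0.93 ± 0.15; limma, adjusted p = 0.00371). It did not pass at 0.43 ± 0.17 in EC cd36 KO against Control (limma, adjusted p = 0.392), -0.27 ± 0.17 in Total cd36 ko against Control (limma, adjusted p = 0.771) or -0.70 ± 0.15 in Total cd36 ko against EC cd36 KO (limma, adjusted p = 0.151). DESeq2 called the difference between Total cd36 ko and EC cd36 KO (-0.71, adjusted p = 0.0312).

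The Scd1 difference between Total cd36 ko and MHC cd36 KO passed under all 20 alternatives, and the rise against Control under 9 of 20. That rise was 0.50 without MHC cd36 KO replicate 1 (limma, adjusted p = 0.123), 0.60 without Control replicate 1 (0.259) and 0.71 without Control replicate 2 (0.0841). It was 0.67 without MHC cd36 KO replicate 3 (0.0771), and 0.65 without EC cd36 KO replicate 2 (0.0610) or 3 (0.0566) or Total cd36 ko replicate 1 (0.0539) or 3 (0.0514).

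Scd2, the paralog known from brain, read 290.0, 324 and 271 in EC cd36 KO, 428, 275 and 264 in MHC cd36 KO and 248, 204 and 207 in Total cd36 ko, against 197 and 249.8 in Control. MHC cd36 KO replicate 1 stood above the rest, as for Scd1. Scd2 did not pass in any comparison, with 0.50 ± 0.20 in MHC cd36 KO against Control (limma, adjusted p = 0.165) and -0.52 ± 0.18 in Total cd36 ko against MHC cd36 KO (limma, adjusted p = 0.0633). The difference between Total cd36 ko and MHC cd36 KO passed under 5 of 20 alternatives. Among them were edgeR (-0.56, adjusted p = 0.0475) and DESeq2 (-0.56, adjusted p = 0.0288), and limma without MHC cd36 KO replicate 2 (-0.62, adjusted p = 0.0488) or 3 (-0.65, adjusted p = 0.0485).

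Scd4 was the most variable gene of the list. It read 224, 272 and 276 in EC cd36 KO, 228, 715 and 1223 in MHC cd36 KO and 140.0, 264 and 747 in Total cd36 ko, against 762 and 1001 in Control. All EC cd36 KO and all Total cd36 ko libraries were below both Control libraries; those of EC cd36 KO lay close together and those of Total cd36 ko far apart, and MHC cd36 KO ran from below to above Control. On the log2 scale Scd4 stood against Control at -1.77 ± 0.65 in EC cd36 KO (limma, adjusted p = 0.363), -0.58 ± 0.65 in MHC cd36 KO and -1.53 ± 0.65 in Total cd36 ko (limma, adjusted p = 0.565). None passed; in a fit to EC cd36 KO and Control alone, which drops the spread of the other groups, it did (-1.77; limma, adjusted p = 0.00468).

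**Figure D3:**
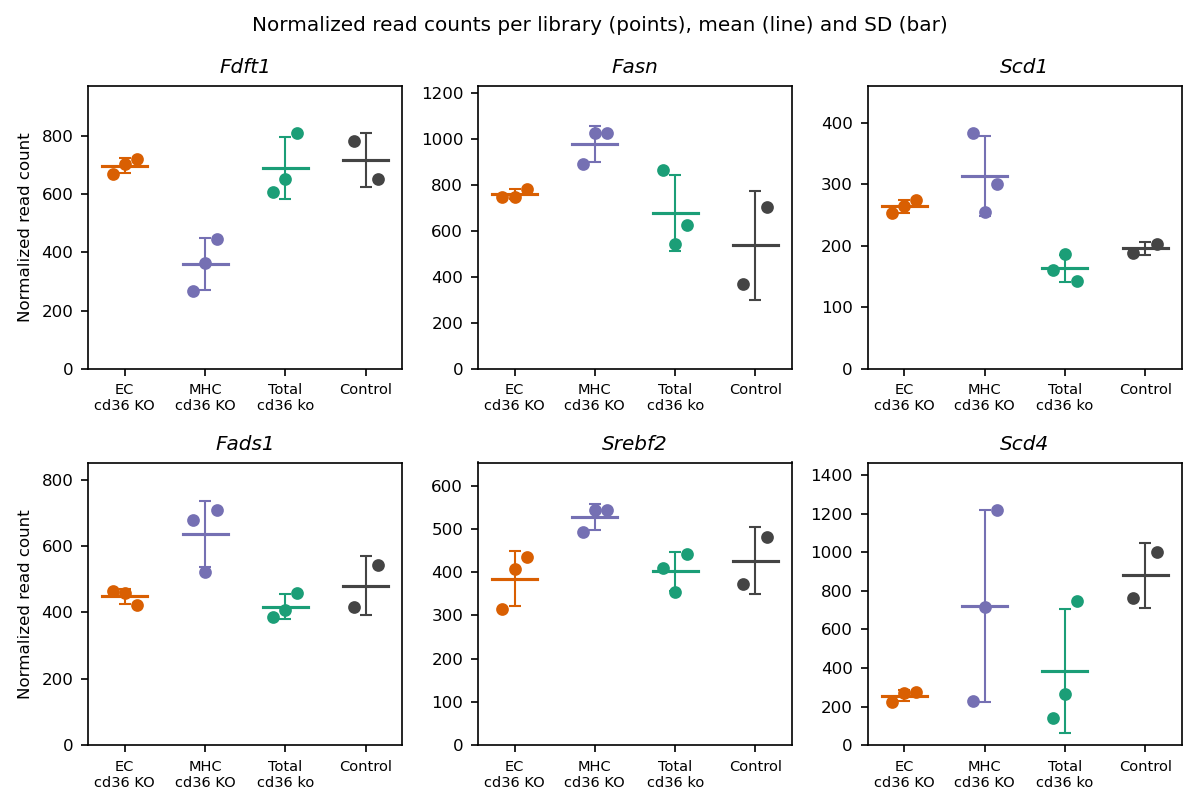
Normalized read count of Fdft1, Fasn, Scd1, Fads1, Srebf2 and Scd4 in each library of EC cd36 KO, MHC cd36 KO, Total cd36 ko (n = 3 each) and Control (n = 2); the horizontal line is the mean and the bar its SD. Fdft1 in MHC cd36 KO (267, 365 and 447) lies below every other library, and Scd4 spans 228 to 1223 within MHC cd36 KO.

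Fads1 and Fads2 encode the desaturases of polyunsaturated fatty acids and also neighbour each other on chromosome 19, at chr19:10182888-10196877 (+ strand) and chr19:10062765-10101746 (-). Fads1 read 465, 457 and 421 in EC cd36 KO, 678, 522 and 709.8 in MHC cd36 KO and 387, 408 and 458 in Total cd36 ko, against 417 and 544 in Control. Both other knockouts lay below MHC cd36 KO without overlap, and MHC cd36 KO overlapped with Control. Fads1 was lower than in MHC cd36 KO both in EC cd36 KO (log2 difference -0.50 ± 0.13; limma, adjusted p = 0.0239) and in Total cd36 ko (-0.60 ± 0.13; limma, adjusted p = 0.0126).

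The Fads1 difference between EC cd36 KO and MHC cd36 KO was lost without EC cd36 KO replicate 2 (-0.51; limma, adjusted p = 0.0563) or 3 (-0.45; 0.0707) and without MHC cd36 KO replicate 1 (-0.44; 0.0822) or 3 (-0.41; 0.0894). With EC cd36 KO and MHC cd36 KO replicates 1 left out together, neither Fads1 difference passed (-0.47 in EC cd36 KO, limma, adjusted p = 0.113; -0.55 in Total cd36 ko, whose adjusted p lay just above the threshold). Its difference from Control in MHC cd36 KO, 0.41 ± 0.15 (limma, adjusted p = 0.143), passed without MHC cd36 KO replicate 2 (0.54; limma, adjusted p = 0.0402). Fads2 read 36.9, 46.0 and 38.4 in Total cd36 ko and 73.3, 55.0 and 57.2 in MHC cd36 KO, without overlap. The difference of -0.60 ± 0.20 did not pass (limma, adjusted p = 0.0645). It passed under 2 of 20 alternatives, edgeR among them (-0.61, adjusted p = 0.0490).

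Elovl5, which lengthens polyunsaturated chains, read 628, 599.6 and 557 in EC cd36 KO, 558, 444 and 499 in MHC cd36 KO and 401, 512 and 473 in Total cd36 ko, against 499.8 and 497 in Control. EC cd36 KO stood above both Control and Total cd36 ko without overlap, and neither difference passed (0.25 ± 0.13; limma, adjusted p = 0.517; Total cd36 ko minus EC cd36 KO -0.37 ± 0.11; adjusted p = 0.309). Elovl6, which lengthens palmitate, read only 7.77 to 22.5 over all libraries, and its SE against Control of 0.46 was wide at this level. Stard4, a sterol carrier of the cytosol, ran from 44.7 to 84.6 and did not pass in any comparison.

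**Figure D4:**
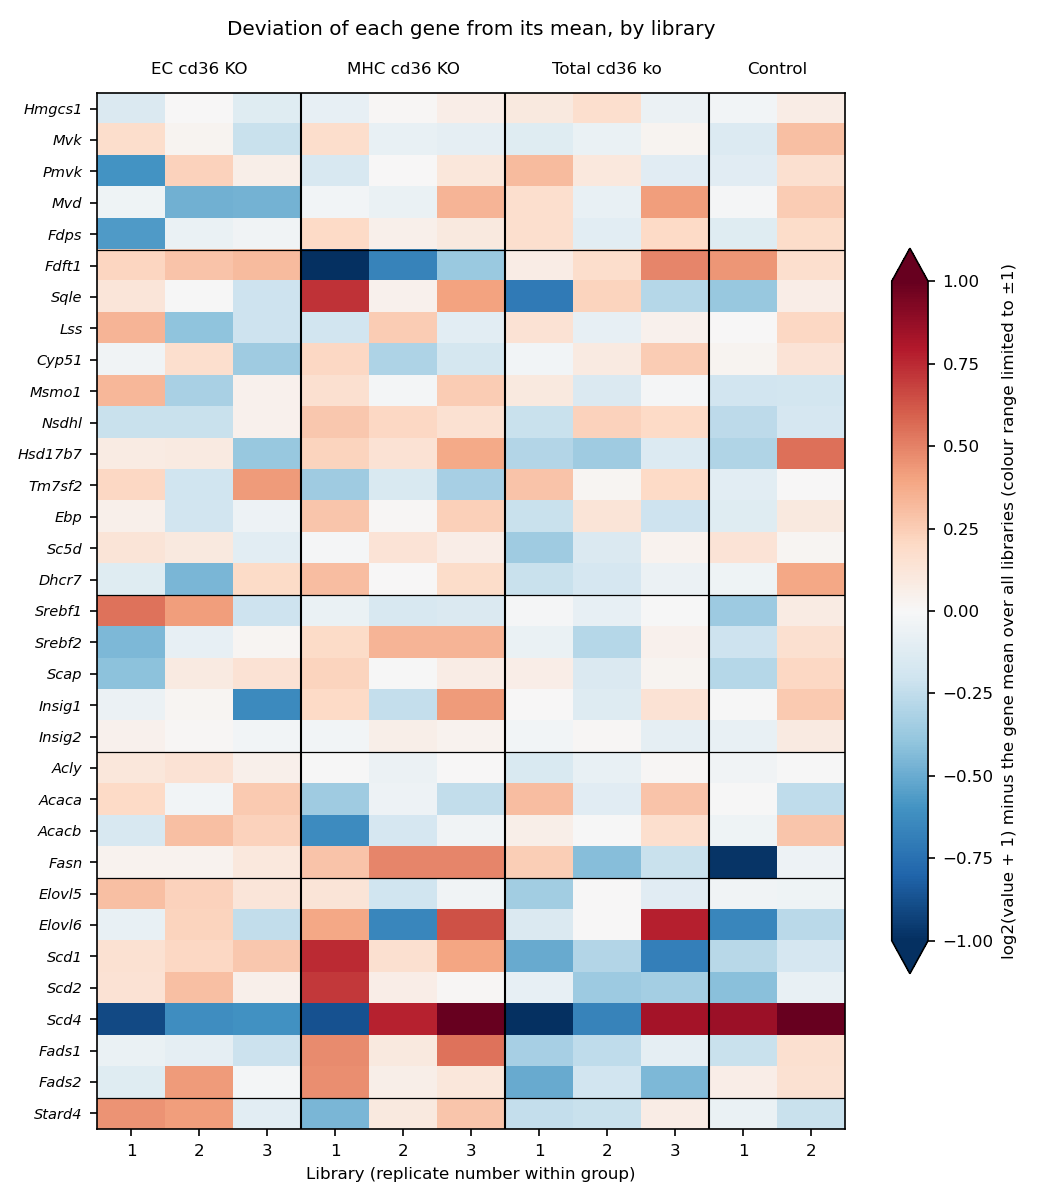
Deviation of each tested gene from its mean over all libraries, on the log2(value + 1) scale, with libraries in columns by group and genes in rows by role; red is above the mean, blue below, and colours stop at 1. Msmo1 is the row under Sc4mol. Fdft1 is blue in the MHC cd36 KO columns alone, and Scd4 changes colour between libraries of MHC cd36 KO and of Total cd36 ko.

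Between the knockouts, 3 of 32 genes passed in EC cd36 KO against MHC cd36 KO (9.38%, against a background of 19.1%), with Fdft1 higher (background 8.72%) and Fads1 and Srebf2 lower (background 10.4%), and 9 had an unadjusted p under 0.05 (background 34.2%). There edgeR called 2, beside 18.7% of all genes, and DESeq2 3, beside 19.1%. In Total cd36 ko against MHC cd36 KO 3 passed as well (background 16.4%), with Fdft1 higher (background 8.2%) and Fads1 and Scd1 lower (background 8.2%), and 10 had an unadjusted p under 0.05 (background 30.5%). For that comparison edgeR and DESeq2 each called 5, beside 18.6% of all genes by edgeR and 19.5% by DESeq2. Both limma shares of passing genes were below those over all genes. Against EC cd36 KO, in Total cd36 ko 0 of 32 genes passed by limma (background 0.0385%) or edgeR (0.0308%), 1 by DESeq2 (Scd1; background 0.539%), and 6 had an unadjusted p under 0.05 (background 10.4%). The 2 comparisons with MHC cd36 KO share its libraries.

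The count in EC cd36 KO against MHC cd36 KO was 1, Fdft1, without EC cd36 KO replicate 2 or MHC cd36 KO replicate 3, and the count in Total cd36 ko against MHC cd36 KO was 5 without Control replicate 1 or 2, where Fasn and Hsd17b7 joined. With libraries rescaled to the same total, which lowers the median of all genes by 0.14 in Total cd36 ko against MHC cd36 KO, 8 genes passed there, 1 higher and 7 lower. The median log2 difference of the 32 genes was -0.11 in EC cd36 KO and -0.11 in Total cd36 ko against MHC cd36 KO, and -0.03 in Total cd36 ko against EC cd36 KO. In EC cd36 KO against MHC cd36 KO, 9 genes had groups that did not overlap (background 38.8%), 3 higher (19.1%) and 6 lower (19.7%). In Total cd36 ko against MHC cd36 KO there were 11 (background 38.9%), 3 higher (19.6%) and 8 lower (19.3%). Between Total cd36 ko and EC cd36 KO there were 5 (background 19.7%), all lower in Total cd36 ko (8.95%). The genes lower in Total cd36 ko than in EC cd36 KO without overlap were Acly, Elovl5, Scd1, Scd2 and Fads2, named after their values were seen.

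Beyond the listed genes, 57 further genes of sterol and fatty acid metabolism were tested, in lists of sterol synthesis and uptake, SREBP processing, sterol efflux, sterol esters and oxysterols, and fatty acid synthesis and elongation. In MHC cd36 KO against Control 5 rose and 2 fell (12.3%, against 5.7% of all genes), and by limma 0 passed in EC cd36 KO or in Total cd36 ko against Control, with 8 at an unadjusted p under 0.05 in each, 14% of the 57 beside 10.5% of all genes in EC cd36 KO and 8.11% in Total cd36 ko. In these 2 comparisons edgeR called 0, and DESeq2 called Me1 in EC cd36 KO and Mid1ip1 in Total cd36 ko. For MHC cd36 KO against Control edgeR called 11, beside 7.76% of all genes, and DESeq2 12, beside 9.83%. The genes that rose were Apoe, the apolipoprotein that carries cholesterol from macrophages and other cells (log2 0.88 ± 0.16), Npc2, which moves sterol out of lysosomes (0.54 ± 0.12), the phospholipid transfer protein Pltp (0.55 ± 0.12), the elongase Elovl1 (0.57 ± 0.13) and the desaturase Fads6 (0.98 ± 0.26). Those that fell were Acat1, a mitochondrial thiolase (-0.74 ± 0.18), and malic enzyme Me1 (-0.37 ± 0.10), a source of NADPH. All 7 had limma adjusted p of 0.0123 to 0.0489, and their calls held under 5 to 18 of the alternatives. The count of 7 was 3 without MHC cd36 KO replicate 1 (5.36%, against 2.83% of all genes). It was also 3 without Total cd36 ko replicate 3 (5.26%, against 3.67%). It was 4, or 7.02%, without EC cd36 KO replicate 2, MHC cd36 KO replicate 3 or Total cd36 ko replicate 2. All genes stood there at 4.3%, 3.93% and 4.2%. In a fit to MHC cd36 KO and Control alone the count was 0, against 0.47% of all genes. With 1 Control library left out, the 7 differences kept their sign, but their calls did not all hold.

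Apoe read 4272, 4468 and 4199.7 in EC cd36 KO, 10174, 6232 and 8712 in MHC cd36 KO and 4527, 4819.8 and 4928 in Total cd36 ko, against 4494 and 4395 in Control. Its highest value was in MHC cd36 KO replicate 1, which also had the highest macrophage sum of 14864, and the part of macrophages in it was not tested. Mlxipl, which encodes the carbohydrate-responsive factor ChREBP that acts on fatty acid synthesis genes, read 949, 733 and 689 in EC cd36 KO, 366, 388 and 330.4 in MHC cd36 KO and 741, 683 and 532 in Total cd36 ko, against 523 and 544 in Control. It was lowest in the 3 MHC cd36 KO libraries, where Fasn was highest. Mlxipl was higher than in MHC cd36 KO by 1.11 ± 0.14 in EC cd36 KO (limma, adjusted p = 0.000651) and by 0.84 ± 0.14 in Total cd36 ko (limma, adjusted p = 0.00430), under all 20 alternatives.

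In EC cd36 KO against MHC cd36 KO, 4 of the 57 genes were higher and 12 lower (28.1%, against 19.1% of all genes). The count of 16 was 7 without MHC cd36 KO replicate 1 (12.5%, against 11.3% of all genes) and 10 without EC cd36 KO replicate 2 (17.5%, against 12.4%) or MHC cd36 KO replicate 3 (17.5%, against 13.5%). Lower under all 20 alternatives were, among others, Apoe (-0.93 ± 0.14), Pltp (-0.77 ± 0.11) and Npc2 (-0.61 ± 0.11), and higher were Acat1 (0.68 ± 0.16) and the mitochondrial acetyl-CoA synthetase Acss1 (0.62 ± 0.14). Another 9 held their calls under 8 to 16 of the alternatives. Of these Mid1ip1, an activator of acetyl-CoA carboxylase, was higher (0.48 ± 0.14). The lower ones included the sterol-binding Tmem97 (-0.83 ± 0.22), the SREBP regulator Erlin1 (-0.74 ± 0.21), Fads6 (-0.74 ± 0.23), the sterol hydroxylase Cyp27a1 (-0.60 ± 0.15), the citrate carrier Slc25a1 (-0.52 ± 0.14), the dolichol enzyme Dhdds (-0.38 ± 0.12) and the elongation enzyme Hsd17b12 (-0.38 ± 0.11).

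In Total cd36 ko against MHC cd36 KO, 7 of the 57 genes were higher and 8 lower (26.3%, against 16.4%). The count of 15 was 8 without Total cd36 ko replicate 1 (against 9.31% of all genes) or 3 (against 7.98%), and 9 without MHC cd36 KO replicate 1 (16.1%, against 8.15%). Between Total cd36 ko and EC cd36 KO 0 passed by limma, edgeR or DESeq2, with 9 at an unadjusted p under 0.05, beside 10.4% of all genes. Mid1ip1 read 2014, 1309.6 and 1720.0 in Total cd36 ko and 843, 872 and 1019.8 in MHC cd36 KO and was higher by 0.87 ± 0.14 (limma, adjusted p = 0.00323). Mcat, of mitochondrial fatty acid synthesis, was higher by 0.65 ± 0.11, and Apoe (-0.79 ± 0.14), Cyp27a1 (-0.79 ± 0.15), Pltp (-0.60 ± 0.11) and Npc2 (-0.48 ± 0.11) were lower, all under all 20 alternatives. The rest held under 10 to 19. Higher among them were Acat1 (0.68 ± 0.16), Acss1 (0.52 ± 0.14), the mitochondrial reductase Mecr (0.40 ± 0.11) and the oxysterol-binding Osbp (0.33 ± 0.10). Lower among them were, with others, Fads6 (-0.88 ± 0.23), the lysosomal lipase Lipa (-0.36 ± 0.11) and the SREBP protease Mbtps1 (-0.33 ± 0.08).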

How the data were processed

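Heart RNA (400 ng of total RNA, stranded libraries after removal of ribosomal RNA, per the labels) was measured in 11 libraries. Per the submitters' processing notes, the authors used TopHat2, HTSeq 0.8.0 and DESeq2 (given as 3.5) on mm10; annotation, counting mode and strand setting are not given in the sources used here. The deposited signal values are read counts per gene divided by one factor per library: 100.0% of 257620 values lay within 0.05 of a whole read, so whole reads were recovered. No sample column was left unused (0).

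The tests used limma 3.58.1 (R 4.3.3, trended prior) on log2(value + 1) of genes whose mean reached 10 (12976), in one fit of 4 groups, with 6 contrasts and an F test, Benjamini-Hochberg adjusted over all genes within each and called under 0.05. Low genes have understated differences on this scale. A gene that did not pass may still differ, and how large a difference these libraries could miss is not given here. No library pair of a group agreed within sampling noise (chi-square per degree of freedom 2.87 to 54.1). Lengths are those of all annotated exons of a gene merged, from GENCODE vM21 (GRCm38), so the order per kb depends on the annotation. As 20 alternatives, the fit was repeated with a pseudocount of 0.5 or 5, no filter, a filter at 50, rescaling to library totals, edgeR 4.0.16 (TMM) and DESeq2 1.42.0 on recovered reads, fits to 2 groups, each library left out, and, added after the data were seen, EC cd36 KO and MHC cd36 KO replicates 1 left out together.

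The members and lists were chosen with earlier results of these data known. Named are members that passed in a comparison with their libraries, at least 1 gene of every role, and pathway genes that passed, of which 2 are counted but not reported here. Replicate numbers follow the order of deposit.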

Additional observations from a re-analysis of the deposited data

How the results depend on the processing

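No paired analysis was possible because the labels give no replicate numbers or animals that tie libraries across groups. Of the 32 tested genes, the number passing in EC cd36 KO against Control was 0 and became 1 (Scd4) in a fit to these 2 groups; with single libraries left out it stayed at 0. In MHC cd36 KO against Control 3 became 1 with no filter, 0 in the 2-group fit, 1 with EC cd36 KO and MHC cd36 KO replicates 1 left out together, and 0 to 3 with single libraries left out. In EC cd36 KO against MHC cd36 KO 3 became 1 with those 2 libraries left out and 1 to 3 with single ones. In Total cd36 ko against MHC cd36 KO 3 became 8 with libraries rescaled to the same total, 5 in edgeR, 5 in DESeq2, 6 in the 2-group fit and 3 to 5 with single libraries left out. Total cd36 ko against EC cd36 KO went to 1 (Scd1) in DESeq2, and the F test count of 3 to 5 (Fasn and Srebf2 joined) with rescaling. Total cd36 ko against Control stayed at 0 throughout. The cause of these changes was not tested.

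Among differences not called, the sign changed in at least 1 alternative for 14, 18, 20, 11, 11 and 13 of the 32 genes in the 6 comparisons (EC cd36 KO, MHC cd36 KO and Total cd36 ko against Control, EC cd36 KO and Total cd36 ko against MHC cd36 KO, Total cd36 ko against EC cd36 KO). No called difference of a listed or pathway gene changed sign. Rescaling moved the median of all genes to -0.12 in EC cd36 KO and -0.14 in Total cd36 ko against MHC cd36 KO. It also moved the higher and lower calls over all genes from 1131 and 1348 to 641 and 2085, and from 1064 and 1064 to 547 and 1744; in MHC cd36 KO against Control, from 427 and 312 to 568 and 237. Counts over all genes with single libraries left out ran from 5 to 84 (41 with all libraries) in EC cd36 KO, 26 to 999 (739) in MHC cd36 KO and 1 to 33 (11) in Total cd36 ko against Control; DESeq2 gave 162, 1276 and 93, and no filter gave 22 in EC cd36 KO and 7 in Total cd36 ko. The 2-group fit gave 61 in MHC cd36 KO, and rescaling 26 in Total cd36 ko. Against MHC cd36 KO they ran from 1455 to 2582 (2479) in EC cd36 KO and 1036 to 2272 (2128) in Total cd36 ko, and in Total cd36 ko against EC cd36 KO from 0 to 28 (5), with 0 under no filter, 3 with the filter at 50, 70 in DESeq2 and 14 in the 2-group fit. Leaving out EC cd36 KO and MHC cd36 KO replicates 1 together gave 425 in MHC cd36 KO and 40 in Total cd36 ko against Control, 1141 in EC cd36 KO and 1261 in Total cd36 ko against MHC cd36 KO, and 919 in the F test (1853). With one Control library left out, the single Control that is left is taken to spread as much as the knockout groups. The low depth of EC cd36 KO replicate 1 limits genes such as Idi1, Elovl6 and Sqle.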
